A study of Mus musculus with 12 samples.

Results

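The endothelial genes described here are 10 genes that mark the cells lining blood vessels: Pecam1, Cdh5, Esam, Kdr, Flt1, Tek, Tie1, Plvap, Emcn and Eng. They were chosen by symbol, and each was matched to 1 Ensembl identifier among the 52962 in the deposited table of estimated counts. All 10 were among the 15598 genes that passed the filter on low counts, which asked for a CPM (counts relative to library size, here before scaling) above 1 in at least 3 of the 12 samples. Of the 10, 7 (Cdh5, Kdr, Tek, Tie1, Emcn, Plvap and Eng) passed only with the non-β libraries, and Tek and Tie1 only with those at 8 weeks, so that counts over the members that passed are a description and support no direction. Levels below are in CPM with library sizes scaled by the TMM method. The islets came from NOD females, which become diabetic through autoimmunity, and the labels give no other allele or treatment. Islet cells had been sorted by size, granularity and autofluorescence into a β-cell and a non-β-cell fraction, after removal of CD45-positive leukocytes, at 4 and 8 weeks of age. Each fraction at each age was a group of 3 replicates, which made 4 groups. The study, though not the labels, describes pools of 3 mice, and it has 4 weeks as an early and 8 weeks as a later stage of islet infiltration by immune cells. The non-β fraction was defined by what it lacked, so it held α-, δ- and PP-cells together with any vascular or stromal cells that survived culture, dispersal with trypsin and the gate.

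Islets are supplied by a dense network of fenestrated capillaries, and endocrine cells attract and maintain these vessels by secreting VEGF-A. Endothelial cells receive that signal through the VEGF receptors encoded by Kdr and Flt1 and are held quiescent or made permeable by angiopoietins acting on the receptor encoded by Tek. They are joined to each other by VE-cadherin (Cdh5), PECAM-1 (Pecam1) and ESAM (Esam), and under inflammation they display the selectins and adhesion molecules to which leukocytes bind.

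The endothelial genes were higher in the non-β fraction, where 6 of 10 passed the test against β-cells at 4 weeks (23.7% of all genes tested) and 10 of 10 at 8 weeks (25.6%), and all 10 rose there with age (11.6%). The count at 4 weeks ran from 1 to 10 in the alternatives. With no filter on low counts, over 28647 genes, the 3 counts were 7, 10 and 10. The mean CPM of each gene in non-β-cells was between 4.21-fold (Esam) and 14.8-fold (Kdr) higher at 8 than at 4 weeks, and all 10 passed the test (adjusted p up to 0.00541, limma-voom). No member passed the test for age in β-cells, where the 10 genes summed to 9.01, 7.29 and 16.3 CPM at 4 weeks and 15.1, 17.2 and 17.3 CPM at 8 weeks. In non-β-cells the same sum was 70.7, 62.7 and 114 CPM at 4 weeks and 1264, 472 and 700 CPM at 8 weeks. The fractions did not overlap at either age, and replicate 1 of the 8-week non-β-cells stands above the other two. Replicate 3 had the highest sum of its group in both fractions at 4 weeks. The RNA came from many cells at once, so more endothelial cells and more of these transcripts per cell cannot be told apart.

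Total estimated counts lay between 13755106 (non-β-cells at 8 weeks, replicate 2) and 27040652 (β-cells at 8 weeks, replicate 2), so that 1 count was worth 0.0377 to 0.0747 CPM and a count of 0 allowed up to 0.113 to 0.224 CPM (3 counts). The 10 genes held 177 to 457 counts together in a β library, 1282 to 2320 in a non-β library at 4 weeks and 6320 to 29203 at 8 weeks. The insulin gene Ins2 averaged 32964 CPM in the β and 568 CPM in the non-β fraction at 4 weeks, and glucagon (Gcg) 6904 and 108569 CPM, in keeping with the fraction labels. The 4-week samples numbered 3 stood apart from the other replicates over all genes. In β-cells the chi-square per degree of freedom was 82.2 and 88.5 between replicate 3 and replicates 1 and 2, against 25.02 between those, and in non-β-cells 36.9 and 44.7 against 12.1. Without both, the counts of members called were 1 between fractions at 4 weeks, 10 for age in non-β-cells and 0 for age in β-cells. Ptprc, which encodes CD45, had at most 16 counts in any library.

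Positions are those of GENCODE M21 on GRCm38, counted from 1. Pecam1 lies at chr11:106654217-106750628, Cdh5 at chr8:104101625-104144511, Esam at chr9:37528078-37538319 and Eng at chr2:32646595-32682669. Kdr lies at chr5:75932827-75978458 and Flt1 on the same chromosome at chr5:147561604-147726011, Tek at chr4:94739289-94874976 and Tie1 at chr4:118471191-118490061. Emcn lies at chr3:137341067-137432185 and Plvap at chr8:71497765-71511752. The counts were of spliced transcripts, so the values cover the exons of each gene. Cdh5 overlaps the antisense gene Gm29682, Plvap overlaps Gtpbp3 on the opposite strand, and Eng overlaps Fpgs on the opposite strand and the small RNA genes Mir1954, Gm47291 and Gm26236. The study describes the reads as reversely stranded. Whether the counting used strand is not given in the sources used here, so part of the counts of these 3 genes could belong to their neighbours.

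Because the members moved together, the sequence just upstream of their start is shown for 5 of the 6 that have a RefSeq promoter window (Kdr, Flt1, Tek, Tie1, Emcn and Eng; GRCm38.p6). The window of Tie1 lies inside its annotated gene and is not printed, and those of Kdr and Emcn reach a few bases into theirs. Capitals mark GGAAG or its reverse CTTCC, the core bound by ETS factors such as ERG and FLI1, which drive many endothelial genes. Each line runs 5′ to 3′ over the 150 bases before the start of the gene.
Flt1 (chr5:147726012-147726161, minus strand): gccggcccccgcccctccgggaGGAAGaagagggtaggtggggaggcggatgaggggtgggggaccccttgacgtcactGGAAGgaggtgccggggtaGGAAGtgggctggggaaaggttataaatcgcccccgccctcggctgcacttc
Eng (chr2:32646445-32646594, plus strand): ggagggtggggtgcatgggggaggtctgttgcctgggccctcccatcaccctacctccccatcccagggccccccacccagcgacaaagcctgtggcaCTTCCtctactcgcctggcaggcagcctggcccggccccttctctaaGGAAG
Emcn (chr3:137340928-137341077, plus strand): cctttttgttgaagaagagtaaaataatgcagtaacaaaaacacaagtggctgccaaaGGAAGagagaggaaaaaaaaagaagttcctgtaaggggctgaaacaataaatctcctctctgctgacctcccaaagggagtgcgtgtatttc
Kdr (chr5:75978456-75978605, minus strand): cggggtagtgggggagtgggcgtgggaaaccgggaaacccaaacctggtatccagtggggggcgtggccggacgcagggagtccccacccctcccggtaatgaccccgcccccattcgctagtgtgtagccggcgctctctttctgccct
Tek (chr4:94739139-94739288, plus strand): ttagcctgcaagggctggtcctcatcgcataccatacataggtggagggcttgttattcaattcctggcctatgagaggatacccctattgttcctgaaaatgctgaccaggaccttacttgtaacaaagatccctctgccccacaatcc
Flt1 carried 3 such cores in this stretch, Eng 2, Emcn 1, and Kdr and Tek none. Over the full 250 bases before the start, 5 of the 6 windows held GGAAG on either strand, against 64.1% of 32851 promoter windows of the same length. The GATA core GATAA was in 0 of 6 (22.6% of all windows), the SOX motif AACAAT in 2 of 6, Tek and Emcn (9.4%), and the TATA box TATAAA in 1 of 6, Flt1, 31 bases before the start (12.4%). Both strands were searched. A match is a description of the letters and not a bound site, and AACAAT can share letters with GATAA or TATAAA.

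The junction genes differed most from each other in how much was found in β-cells. Pecam1 encodes an adhesion molecule of endothelial junctions that platelets and leukocytes also carry. Its level was 3.00, 1.98 and 4.86 CPM in 4-week β-cells and 3.65, 5.01 and 5.26 CPM at 8 weeks. In non-β-cells it was 8.34, 6.41 and 14.0 CPM at 4 weeks and 119, 45.6 and 78.2 CPM at 8 weeks. The fractions did not overlap at either age, nor did the ages in non-β-cells, whereas the ages overlapped in β-cells. Cdh5, the cadherin of endothelial junctions, was at 0.458, 0 and 1.06 CPM in 4-week β-cells and 0.324, 0.791 and 0.481 CPM at 8 weeks. In non-β-cells Cdh5 was at 12.4, 8.46 and 15.2 CPM at 4 weeks and 162, 57.8 and 94.9 CPM at 8 weeks. Cdh5 thus had 0 to 23 counts in a β library and 173 to 3750 in a non-β library. Esam, an adhesion molecule of endothelial tight junctions and platelets, was at 3.05, 3.81 and 5.32 CPM in 4-week β-cells and 5.50, 7.24 and 7.82 CPM at 8 weeks. In non-β-cells Esam was at 6.77, 9.44 and 9.56 CPM at 4 weeks and 42.6, 28.2 and 37.7 CPM at 8 weeks. Esam had the smallest fitted difference between fractions of the 10.

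Of the VEGF receptors, Kdr transduces most of the growth signal and Flt1 binds the ligand more tightly and limits it. Kdr was at 0.204, 0 and 0.780 CPM in 4-week β-cells and 1.20, 0.528 and 0.522 CPM at 8 weeks. In non-β-cells it was at 7.27, 6.46 and 15.5 CPM at 4 weeks and 252, 73.4 and 106 CPM at 8 weeks. Replicate 1 at 8 weeks held 2.81 times the mean of the other two, the largest excess of that library among the members. Flt1 was at 1.07, 0.832 and 1.42 CPM in 4-week β-cells and 1.20, 0.716 and 0.682 CPM at 8 weeks. In non-β-cells Flt1 was at 7.11, 9.05 and 14.5 CPM at 4 weeks and 237, 86.1 and 117 CPM at 8 weeks. Every non-β library lay above every β library for both receptors.

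Tek and Tie1 encode the angiopoietin receptor TIE2 and the related receptor with which it pairs, and they were the 2 lowest members in non-β-cells. Tek was at 0.0509, 0.159 and 0 CPM in 4-week β-cells and 0.370, 0.264 and 0 CPM at 8 weeks. In non-β-cells Tek was at 2.10, 0.196 and 1.97 CPM at 4 weeks, with only 4 counts in replicate 2, and at 15.1, 7.69 and 8.48 CPM at 8 weeks. Tie1 was at 0.356, 0.198 and 0.138 CPM in 4-week β-cells and at 0.185, 0 and 0 CPM at 8 weeks. In non-β-cells Tie1 was at 3.21, 0.636 and 3.60 CPM at 4 weeks and 32.9, 13.4 and 18.3 CPM at 8 weeks. Replicate 2 was the low library for both receptors among the 4-week non-β-cells, yet its CPM was still above all β libraries of that age. For Tek only library size set that order, since replicate 2 of the 4-week β-cells also had 4 counts (0.159 CPM).

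Plvap encodes the protein of the diaphragms that close endothelial fenestrae, Emcn a sialomucin of capillary and venous endothelium, and Eng a co-receptor for TGF-β and BMP ligands that stromal cells and macrophages can also express. Plvap was at 0.407, 0 and 2.25 CPM in 4-week β-cells and 0.786, 0.716 and 0.241 CPM at 8 weeks. In non-β-cells it was at 7.50, 6.56 and 14.1 CPM at 4 weeks and 135, 55.3 and 80.7 CPM at 8 weeks. Replicate 3 of the 4-week β-cells carried most of the β counts of that age. Emcn was at 0, 0.0396 and 0.321 CPM in 4-week β-cells and 0.0463, 0.151 and 1.36 CPM at 8 weeks. In non-β-cells Emcn was at 3.63, 2.79 and 7.25 CPM at 4 weeks and 79.1, 28.01 and 41.1 CPM at 8 weeks. Eng was at 0.407, 0.277 and 0.183 CPM in 4-week β-cells and 1.85, 1.81 and 0.963 CPM at 8 weeks, the only member besides Esam whose ages did not overlap in β-cells (2 of 10, against 20.7% of all genes tested that were higher at 8 weeks without overlap). In non-β-cells Eng was at 12.4, 12.7 and 18.6 CPM at 4 weeks and 189.5, 76.6 and 117 CPM at 8 weeks.

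**Figure D1:**
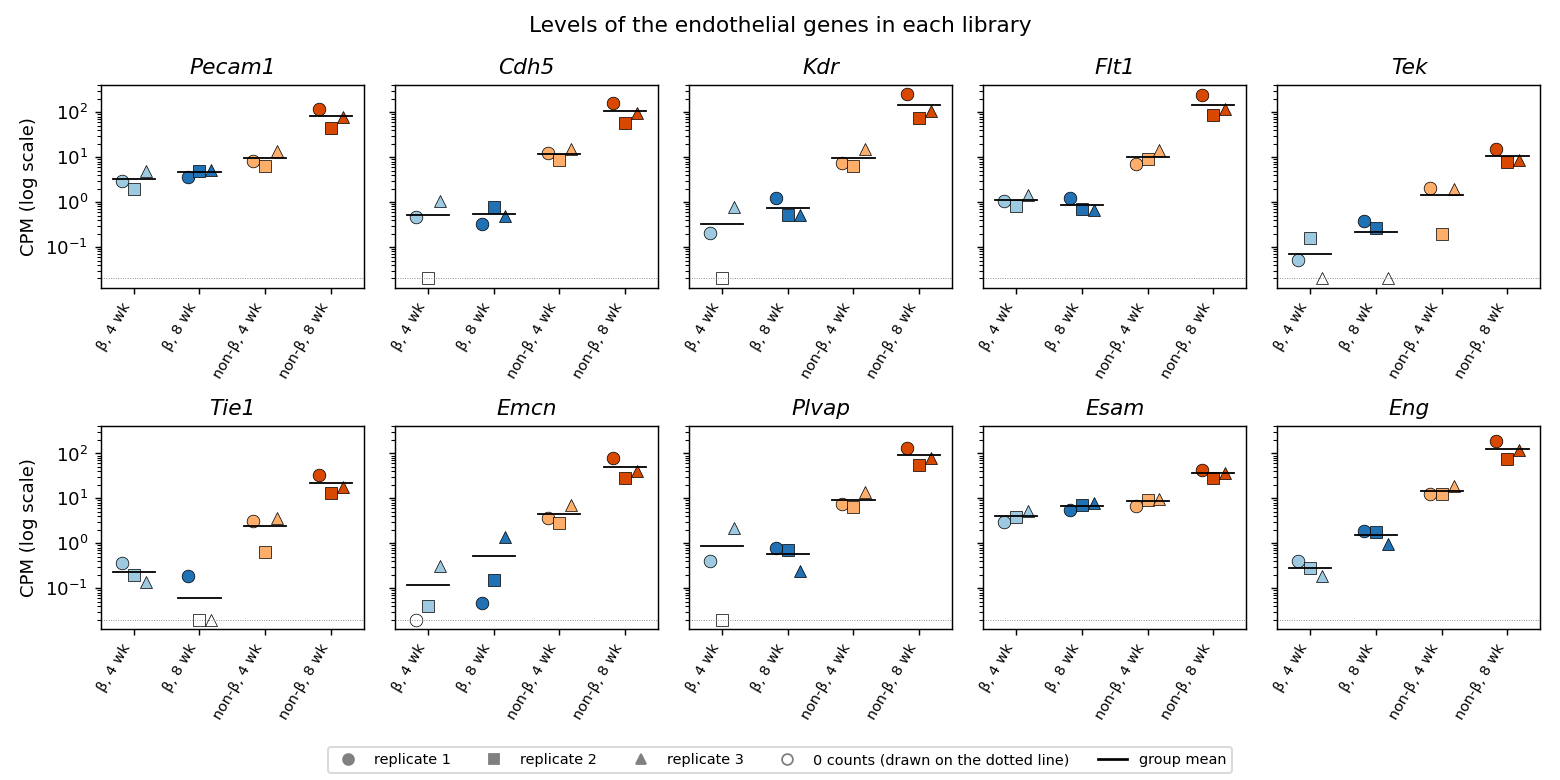
Level of each of the 10 endothelial genes in every library, in CPM on a log axis, with a line at the mean of the 3 replicates of a group and open symbols on the dotted line for libraries with 0 counts. The 8-week non-β-cells sit highest for every gene, and Pecam1 and Esam are the members with the highest levels in β-cells.

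Levels of different genes were compared per kilobase of the longest coding transcript. In non-β-cells at 8 weeks Plvap was the highest, at 45.4 ± 20.4 CPM per kb (SD, n = 3), followed by Eng at 37.4 ± 16.7, Cdh5 at 26.3 ± 13.3 and Kdr at 24.3 ± 16.1. Pecam1 followed at 23.5 ± 10.6, Flt1 at 21.3 ± 11.5, Esam at 19.4 ± 3.95 and Emcn at 19.1 ± 10.3. Neighbours in that order, from Plvap to Emcn, differed by less than their SDs. Tie1 at 5.09 ± 2.40 and Tek at 2.24 ± 0.870 CPM per kb were below the rest, and the highest library of either was below the lowest library of each other member. At 4 weeks the order in non-β-cells began with Plvap at 4.72 ± 2.07, Esam at 4.61 ± 0.847 and Eng at 4.26 ± 1.03 CPM per kb and again ended with Tie1 and Tek.

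Comparing the 2 fractions asks how far the endothelial transcripts were confined to non-β-cells. At 4 weeks 6 of the 10 genes were higher in non-β-cells, namely Pecam1, Cdh5, Esam, Flt1, Plvap and Eng, against 23.7% of all genes tested that were higher and 24.9% that were lower. The groups did not overlap in CPM for any of the 10, as for 26.7% of all genes tested in that direction. For Tek this rested on library size, the nearest β and non-β libraries having 4 counts each. The median log2 difference of the members was 4.54, and that of all genes tested was 4.94e-05. The difference ranged among called members from 1.06 ± 0.306 on the log2 scale (Esam, SE, adjusted p = 0.0118, limma-voom) to 5.90 ± 1.90 (Cdh5, adjusted p = 0.0213). Kdr (adjusted p = 0.0723), Tek (0.108), Tie1 (0.0938) and Emcn (0.0726, limma-voom) did not pass. Unadjusted p was under 0.05 for 8 of the 10. By edgeR's quasi-likelihood test and by DESeq2 the count was 10 of 10. The limma-voom count rested on single libraries: without replicate 1, 2 or 3 of the 4-week β-cells it was 2, 3 and 2, without replicate 1, 2 or 3 of the 4-week non-β-cells 5, 8 and 5, and without both 4-week samples numbered 3, a choice made after seeing the data, it was 1.

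At 8 weeks all 10 genes were higher in non-β-cells, against 25.6% of all genes tested (23.6% were lower), and the groups again did not overlap for any of the 10 (32.4% of all genes tested). The log2 differences ran from 2.40 ± 0.221 (Esam, SE, adjusted p = 1.64e-06, limma-voom) to 8.95 ± 2.17 (Tie1, adjusted p = 0.00411), with a median of 7.33. All 10 calls held when any library was left out. The fitted differences of genes with libraries at 0 depend on the small constant added before the logarithm, so the summed counts of each group give a plainer scale. By summed counts, β-cells at 4 weeks held 34.1% of the non-β level of Pecam1 (95% interval 29.0 to 39.8, exact, counting error only) and 48.4% of that of Esam (41.7 to 56.0). The other 8 genes stood between 1.98% (Eng, 1.19 to 3.11) and 11.0% (Flt1, 8.51 to 14.0). At 8 weeks these shares were 5.39% for Pecam1 (4.82 to 6.01), 18.5% for Esam (16.7 to 20.4) and between 0.236% (Tie1, 0.0642 to 0.606, 4 counts) and 1.86% (Tek, 1.04 to 3.10) for the others. Pecam1 and Esam were above 1 CPM in all 6 β libraries.

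The make-up of the endothelial counts was unequal in the 2 fractions. Esam contributed 39.6% ± 11.0 (SD, n = 3) of the counts of the 10 genes in 4-week β-cells and 41.2% ± 4.43 in 8-week β-cells. In non-β-cells it contributed 11.0% ± 3.56 and 4.91% ± 1.36. Pecam1 made up 30.1% ± 3.09 and 27.9% ± 3.26 of these counts in β-cells, and 11.4% ± 1.06 and 10.1% ± 0.959 in non-β-cells. The lowest β library lay above the highest non-β library for both genes. Eng had the opposite order, with 3.15% ± 1.79 and 9.43% ± 3.47 of the β counts against 18.02% ± 2.05 and 15.996% ± 0.906 of the non-β counts.

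**Figure D2:**
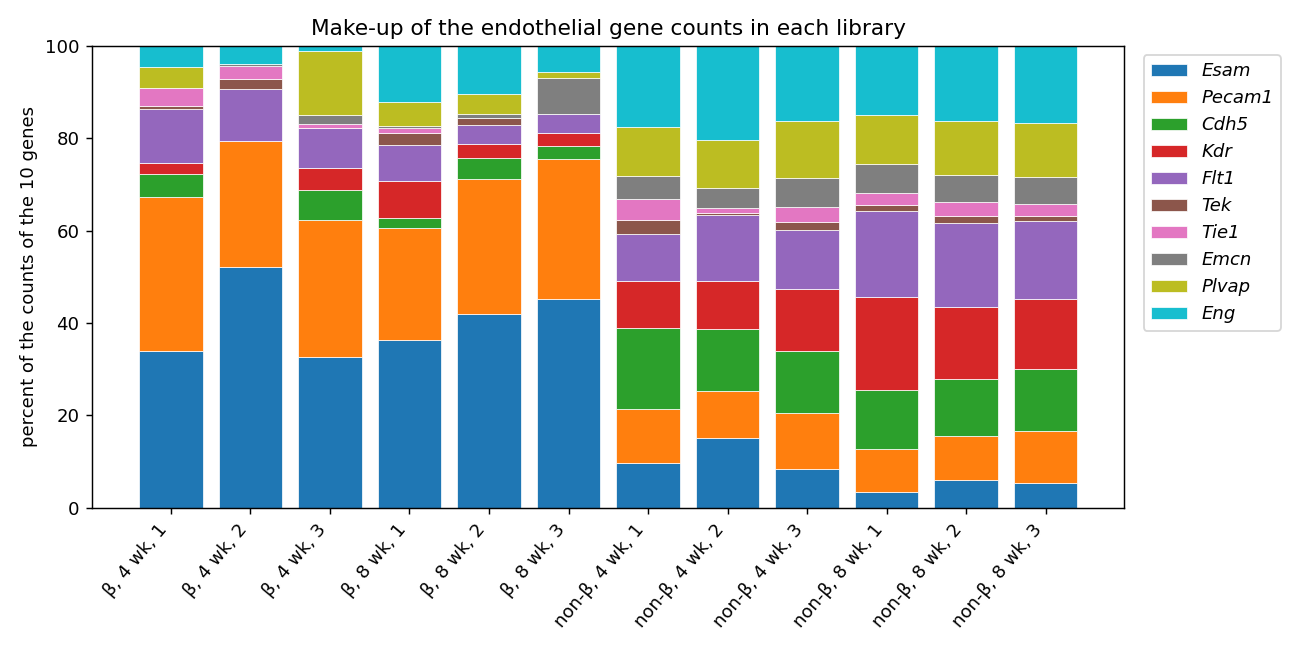
Share of the summed counts of the 10 endothelial genes that each gene contributed, in percent, with 1 bar for each library. Esam and Pecam1 take the greater part of every β bar (means of 39.6% and 30.1% at 4 weeks) and a small part of every non-β bar (11.0% and 11.4%).

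The comparison of ages within non-β-cells asks how the endothelial transcripts changed between 4 and 8 weeks. Infiltration was not measured in these samples and all were from NOD mice, so age and disease stage cannot be told apart. All 10 rose, against 11.6% of all genes tested that were higher at 8 weeks and 4.8% that were lower. The log2 change ran from 2.12 ± 0.212 for Esam (SE, adjusted p = 1.95e-05, limma-voom) to 3.84 ± 0.485 for Kdr (adjusted p = 0.000125), with a median of 3.31 against 0.0123 for all genes tested. Flt1 rose by 3.82 ± 0.380, Emcn by 3.49 ± 0.501, and the other members by 3.06 to 3.36. The lowest 8-week library was between 2.94 (Esam) and 5.92 times (Flt1) the highest 4-week library, and 19% of all genes tested were higher at 8 weeks without overlap. Replicate 1 of the 8-week group exceeded the mean of the other two by 1.29 (Esam) to 2.81 times (Kdr), and without it the folds of the means ranged from 3.83 (Esam) to 9.94 (Flt1), with all 10 still called. For Kdr the fold was 14.8 with that library and 9.20 without it.

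**Figure D3:**
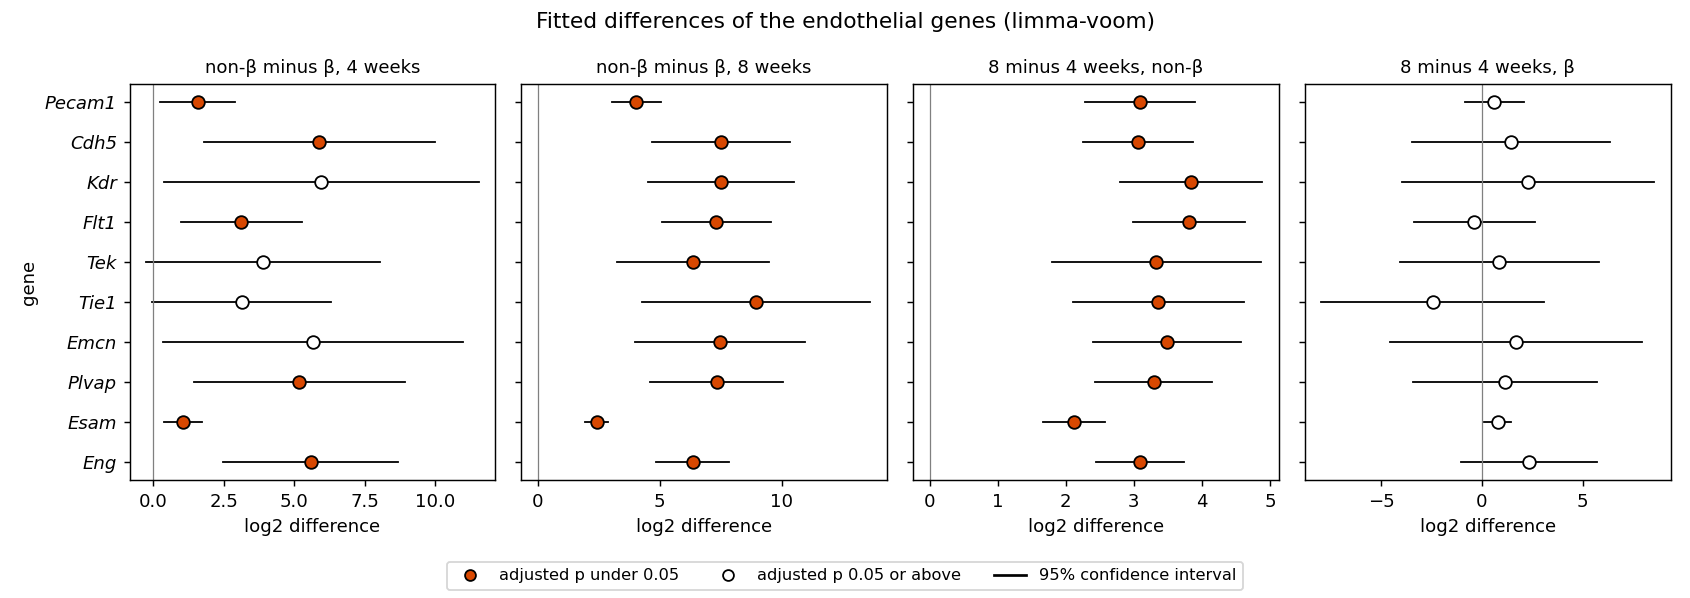
Fitted log2 difference of each endothelial gene with its 95% confidence interval from limma-voom, in 4 comparisons, each with its own horizontal scale. Filled points passed an adjusted p of 0.05: 6 of 10 between fractions at 4 weeks, 10 of 10 at 8 weeks, 10 of 10 for age in non-β-cells and 0 of 10 for age in β-cells.

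Ratios between members were compared within each library. Relative to Cdh5 within each library, Kdr counts were 0.588, 0.763 and 1.02 times those of Cdh5 at 4 weeks and 1.56, 1.27 and 1.12 times at 8 weeks in non-β-cells. The ratio of Flt1 to Cdh5 was 0.576, 1.07 and 0.958 at 4 weeks and 1.46, 1.49 and 1.24 at 8 weeks, and that of Esam to Cdh5 was 0.548, 1.12 and 0.630 and then 0.263, 0.487 and 0.397. The ages did not overlap for these 3 ratios. Each gave p = 0.1 in a two-sided exact permutation test, the smallest that 3 against 3 samples allow, and 0.3 after adjustment over the 9 ratios computed. The ratios of Pecam1, Eng, Plvap and Emcn to Cdh5, of Kdr to Flt1 and of Tek to Tie1 gave exact p from 0.2 to 1, and their ages overlapped.

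In β-cells 0 of the 10 genes passed the test for age by limma-voom, against 8.59% of all genes tested that were higher at 8 weeks and 9.35% that were lower. Esam, at 0.78 ± 0.313 (log2, SE), had an unadjusted p of 0.0271 and an adjusted p of 0.107 and was the sole member with an unadjusted p under 0.05. Its 95% interval ran from 0.10 to 1.45, and that of Eng, at 2.33, from -1.05 to 5.71. Both edgeR's quasi-likelihood test (adjusted p = 0.0484 for Esam and 0.0101 for Eng) and DESeq2 (0.0282 and 8.98e-06) called these 2 genes and no other member. The intervals of the other 8 were wide, from -3.96 to 8.54 for Kdr, for example, and a missed threshold does not show that these genes did not change.

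The interaction, the age change in non-β-cells minus that in β-cells, was above 0 for all 10 genes (median 1.97 on the log2 scale) but none passed the test, against 3.33% of all genes tested that were called higher and 1.8% lower. Unadjusted p was under 0.05 for 4 members (Pecam1, Flt1, Tie1 and Esam), of which Esam had the smallest adjusted p (0.0618, limma-voom) with a difference of 1.34 ± 0.378. The edgeR and DESeq2 tests each called those 4. In limma-voom, where the count on all libraries was 0, calls were gained by leaving out single 8-week non-β libraries. There was 1 call (Flt1) without replicate 1 and 2 calls (Pecam1 and Esam) without replicate 2. The calls for these 4 genes thus differed with the test and with single libraries, and none of the 10 was called in the main limma-voom fit. With sample quality weights limma-voom called 2 of the 10, and the closing section gives the other settings.

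The other vascular lists met the filter in the same way as the members. Of their tested genes, 4 of 10 ligands, 9 of 13 receptors, 9 of 10 transcription factors, 10 of 16 surface and junction genes and 3 of 4 leukocyte-recruiting genes had passed only with the non-β libraries. Without the 8-week non-β-cells 2, 3, 7, 5 and 2 of them would have been left out, among them Apln, Aplnr, Flt4, Erg, Gata2, Gpihbp1 and Sele. The counts below are therefore descriptions of the genes that passed, to be read beside the shares of all genes tested (23.7% and 25.6% higher in non-β-cells at 4 and 8 weeks, 11.6% higher with age in non-β-cells and 8.59% in β-cells).

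Ligands of endothelial receptors formed a list of 12, of which 10 passed the filter. Vegfa, the main growth factor for islet capillaries, was abundant in both fractions, at 609, 638 and 608 CPM in 4-week β-cells and 789, 755 and 714 CPM at 8 weeks. In non-β-cells it was at 712, 781 and 647 CPM at 4 weeks and 560.2, 537 and 528 CPM at 8 weeks. It fell with age in non-β-cells (-0.39 ± 0.093 on the log2 scale, SE, adjusted p = 0.0102, limma-voom; 0.0512 without replicate 2 of the 4-week non-β-cells) and its β value was 0.28 ± 0.093 (adjusted p = 0.0515). In β-cells Vegfa was called in 4 of 17 alternatives, with an adjusted p of 0.00907 by DESeq2, 0.0287 with no filter, 0.00151 with sample quality weights and 0.0179 without both 4-week samples numbered 3. Angpt2, the angiopoietin that loosens vessels and is made by endothelial cells themselves, was at 3.83, 3.47 and 5.77 CPM and then 43.2, 18.2 and 23.9 CPM in non-β-cells and rose by 2.71 ± 0.392 (adjusted p = 0.000337, limma-voom). Angpt1, which stabilises vessels, stayed at or below 1.43 CPM in every library and did not pass the age test in either fraction. Between fractions, 4 of the 10 tested ligands were higher in non-β-cells at 4 weeks, and at 8 weeks 8 were higher and 2 (Vegfa and Vegfb) lower. Of those 8, Angpt1 (adjusted p = 0.0397, limma-voom) lost its call in 6 of 15 alternatives. Of the 10, 5 rose with age in non-β-cells, among them the Notch ligand Dll4 (2.61 ± 0.292) and the peptide Apln (2.36 ± 0.715, adjusted p = 0.0378), a low gene whose call was lost with edgeR (0.239) and DESeq2 (0.185). Apln also lost its call without replicate 1 (0.175) or 2 (0.0652) of the 4-week or replicate 1 (0.12) or 3 (0.0809) of the 8-week non-β-cells. Vegfb (-1.08 ± 0.168) and Pgf (-1.07 ± 0.140) fell with Vegfa, and none of the 10 ligands passed in β-cells by limma-voom.

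Among 13 further receptors, 6 were higher in non-β-cells at 4 weeks and 12 at 8 weeks, and 12 rose with age in non-β-cells and 1 (Notch1, 1.08 ± 0.283, adjusted p = 0.0195, limma-voom) rose in β-cells. The Notch1 call in β-cells was lost without replicate 3 of the 4-week β-cells (0.68, adjusted p = 0.0523) or without replicate 1, 2 or 3 of the 8-week β-cells (0.0508, 0.0582 and 0.0589). Nrp1, a co-receptor for VEGF, was at 7.50, 8.37 and 8.18 CPM at 4 weeks and 78.0, 37.6 and 42.8 CPM at 8 weeks in non-β-cells, a rise of 2.68 ± 0.294 on the log2 scale (SE, adjusted p = 3.94e-05, limma-voom). Flt4, the receptor for VEGF-C, was at 1.03, 0.196 and 2.51 CPM and then 44.8, 13.1 and 21.7 CPM, a rise of 4.88 ± 1.00. The largest fitted rises besides Flt4 were those of Aplnr (5.73 ± 1.10) and S1pr1 (4.30 ± 0.827). Ramp2, a partner of the adrenomedullin receptor, was the exception: it was higher in β-cells at both ages (-0.66 and -0.998 on the log2 scale as non-β minus β) and its age difference in non-β-cells was 0.04. All 10 endothelial transcription factors rose with age in non-β-cells, 0 passed in β-cells, and 4 and then 10 were higher in non-β-cells at 4 and 8 weeks. Of the 4 called at 4 weeks (Fli1, Ets1, Sox18 and Mecom), Fli1 lost its call in 8 of 16 alternatives and Sox18 in 4 of 17. Tal1 was at 0 in all 4-week non-β libraries and was at least 56.2-fold higher at 8 weeks (floor of 3 counts over the group). Gata2 rose by 5.23 ± 1.31 (adjusted p = 0.0144; 0.0657 without replicate 1 of the 4-week non-β-cells and 0.0714 with the compared groups alone) and Erg by 4.96 ± 1.24 (adjusted p = 0.0138, limma-voom, 0.0544 with DESeq2 and 0.0646 with the compared groups alone). Fli1 was at 0 in every β library and averaged 2.10 CPM in the 8-week non-β libraries.

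Of 18 genes listed as surface and junction genes, 16 could be tested and 13 of them rose with age in non-β-cells, while none passed in β-cells. In non-β-cells 8 were higher at 4 weeks and 15 at 8 weeks. Among those 15 was Prox1, which encodes a transcription factor and not a surface protein. At 8 weeks Prox1 was at 211, 196 and 176 CPM in non-β-cells and 71.2, 66.5 and 72.1 CPM in β-cells. Podxl rose by 3.75 ± 0.546 on the log2 scale (SE) and Ecscr by 4.18 ± 0.800. Gpihbp1, which carries lipoprotein lipase across capillary endothelium, was at 0 in all 9 other libraries and at 1.69, 1.12 and 3.13 CPM in 8-week non-β-cells, at least 45.8-fold above 4 weeks (floor of 3 counts over the group), with a call that DESeq2 did not make (adjusted p = 0.211). Lyve1, a receptor of lymphatic endothelium and some macrophages, went against the list: it was higher in β-cells at both ages, with means of 4.88 and 7.07 CPM against 1.37 and 2.19 CPM in non-β-cells. Of 8 genes with which inflamed endothelium recruits leukocytes, 4 passed the filter and all 4 rose with age in non-β-cells. Vcam1 rose by 4.13 ± 0.517, Sele by 3.91 ± 0.842 (adjusted p = 0.00577, limma-voom, and 0.091 with edgeR) and Selp by 3.69 ± 0.568. Of these 4, Icam1 was the one that rose in β-cells too, from 4.32 ± 0.669 to 12.9 ± 1.498 CPM (SD, n = 3) in β-cells and from 7.05 ± 2.75 to 79.0 ± 7.41 CPM in non-β-cells. Genes of the high endothelial venules of lymphoid organs in that list (Madcam1, Ackr1, Chst4 and Glycam1) were too low to test.

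**Figure D4:**
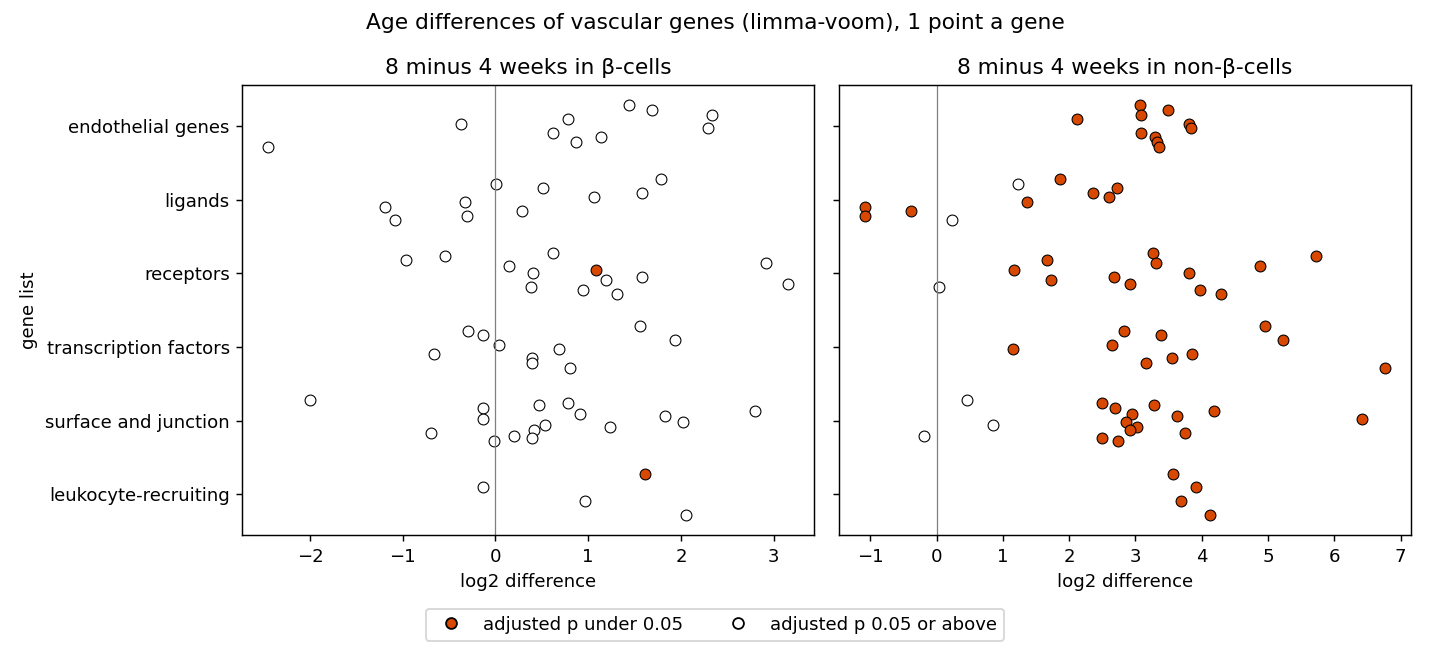
Fitted log2 age difference (8 minus 4 weeks, limma-voom) of each tested gene in the endothelial list and 5 other vascular lists, for each of the 2 fractions, with separate horizontal scales. Filled points passed an adjusted p of 0.05: 2 genes (Notch1 and Icam1) in β-cells, and all endothelial genes, transcription factors and leukocyte-recruiting genes in non-β-cells.

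Some markers of other cell types also rose with age in non-β-cells, though not library by library with the endothelial genes. In non-β-cells at 8 weeks, replicate 1 had the highest endothelial sum (1264 CPM) and the lowest pericyte and fibroblast sum (834 CPM). All 16 pericyte and fibroblast genes rose with age in non-β-cells, and their summed level went from 122 to 343 CPM at 4 weeks to 834 to 1206 CPM at 8 weeks. Of the 16, 9 had passed the filter only with the non-β libraries and 3 only with those at 8 weeks. Their count is thus a description and supports no direction. Beside it and the counts below, 11.6% of all genes tested rose with age in non-β-cells and 8.59% in β-cells. The sum of the endothelial genes was 0.370, 0.514 and 0.333 times that of the pericyte and fibroblast genes at 4 weeks and 1.52, 0.480 and 0.581 times at 8 weeks. Replicate 1 of the 8-week non-β-cells was thus the sole library with more endothelial than stromal counts. Of 9 testable duct and acinar genes, 6 rose with age in non-β-cells and 4 in β-cells, and the sums went from 598 to 837 CPM to 2049 to 2580 CPM in non-β-cells and from 908 to 1305 CPM to 2044 to 2418 CPM in β-cells. The acinar gene Amy2a5 had 2729, 0 and 241 counts in replicates 1, 2 and 3 of the 8-week non-β-cells. Of 15 leukocyte genes 13 were too low to test, and the summed level was 8.81 to 13.6 CPM and 15.9 to 20.8 CPM in non-β-cells at 4 and 8 weeks, against 52.3 to 53.5 and 70.3 to 78.0 CPM in β-cells, most of it the lysosomal gene Cd68. Of 10 platelet and erythroid genes, 9 were too low to test. The sum of all 10 in non-β-cells was 0.842, 0.734 and 1.13 CPM at 4 weeks and 4.89, 3.06 and 2.98 CPM at 8 weeks. In β-cells that sum stayed at or below 0.829 CPM. The 1 tested gene, Itga2b, passed the filter only with the 8-week non-β libraries and was not called for age in either fraction. Among 4 testable Schwann cell genes 2 rose with age in non-β-cells, from sums of 17.0 to 18.1 CPM to 23.9 to 26.9 CPM. Of these 4, 2 had passed the filter only with the non-β libraries, as had 1 of the 9 duct and acinar genes. Of the 6 islet hormone genes 3 rose with age in non-β-cells, Ins1, Ins2 and Sst, and the sum of all 6 was 116092 to 134574 CPM and then 127376 to 154339 CPM. The part of stromal or exocrine cells in the endothelial result was not tested.

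**Figure D5:**
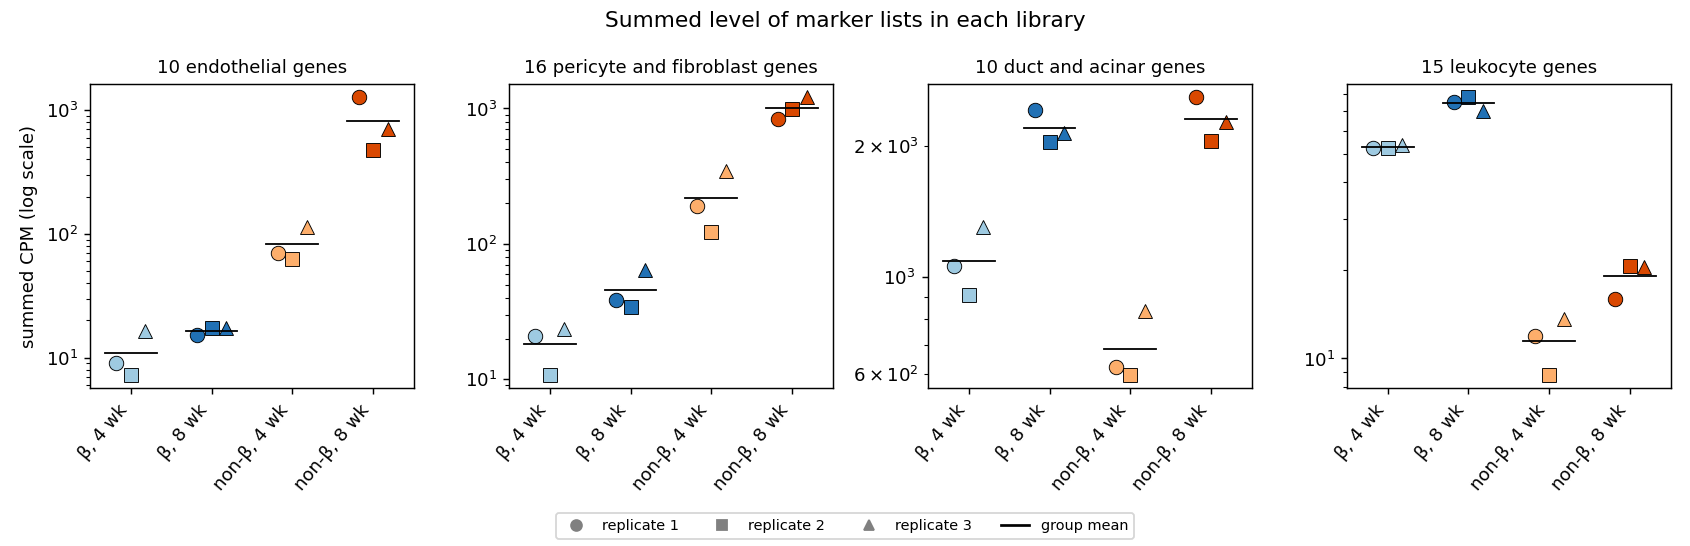
Summed CPM of 4 marker lists in each library on log axes with separate scales, with a line at the mean of each group of 3. The endothelial and the pericyte and fibroblast sums are higher in non-β-cells and higher at 8 weeks there, and the leukocyte sum, most of it Cd68, is higher in β-cells.

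The genes whose pattern over the 12 samples lay nearest to the median profile of the 10 members were Adgrl4, Cyp1a1, Clec14a, Sema7a, Lamb1, Rasgrp3, Gfra3 and Itga5. Their mean absolute difference in centred log2 CPM from that profile was 0.413 (Adgrl4) to 0.491 (Itga5). Of the members themselves Flt1 was nearest (0.313), and Pecam1 (1.23) and Esam (1.75) were farthest. Adgrl4 and Clec14a encode endothelial surface proteins, Lamb1 a laminin of basement membranes and Itga5 a fibronectin receptor subunit. Cyp1a1, an enzyme induced through the aryl hydrocarbon receptor, went from a mean of 6.75 to 49.9 CPM in non-β-cells. The list is a description by likeness over samples that share the same contrast of fractions and ages.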

How the data were processed

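Total RNA of sorted β-cells and non-β-cells from islets of female NOD mice at 4 and 8 weeks was sequenced in 12 libraries, 3 in each of 4 groups set by the labels. The authors trimmed 100 bp single-end reads with fastp, quantified transcripts of Ensembl 98 (GRCm38) with kallisto and summed them to genes, and the deposited values are estimated counts per gene (tool versions are not given in the sources used here). Estimated counts were rounded, 14 to 19.3% of the values not being whole. Symbols were found for 51916 of 52962 identifiers (98.02%) in GENCODE M21 (Ensembl 96). Genes with a CPM above 1 in at least 3 of 12 samples (15598) were kept and scaled by TMM. They were tested with limma-voom (R 4.3.3, limma 3.58.1, edgeR 4.0.16) in a model of 4 group means, two-sided, with Benjamini-Hochberg adjustment over all tested genes and a threshold of 0.05. The code was tested on simulated data.

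The members and lists were chosen with earlier results of these data known. All 10 members are named, as are Vegfa, Angpt1, Angpt2, Nrp1 and Flt4, and from each other vascular list up to 3 called genes per direction and comparison with the largest log2 change, of which the text gives a part. Likeness was the mean absolute difference in centred log2 CPM (prior count 2). Depth was 13755106 to 27040652 counts, and intervals and floors (95%, 3 counts) cover counting error only, since reads are not independent molecules. The labels do not say that replicates came from separate animals, so p-values measure the spread between these samples, which may be partly technical. No library repeated another.

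Other settings tried were the quasi-likelihood test of edgeR, DESeq2 1.42.0, other scalings and filters (none, or at least 10 counts in at least 6 samples), sample quality weights, the compared groups alone, removal of hormone and mitochondrial genes, a replicate block, an adjusted p of 0.1, and the omission of each library.

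Replicate numbers are shared across groups, and whether they pair samples was checked by correlating deviations from group means. Over all 15598 tested genes, the check as first made, not every pair exceeded 0.1 in any comparison, so the numbers were not taken to pair the samples. A second gene set, the 10280 genes with a mean log2 CPM of at least 3, was tried after that result was seen and gave another answer at 4 weeks, as the closing section reports.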

Additional observations from a re-analysis of the deposited data

Results flagged for a closer look

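For 4 genes of the wider vascular lists, and for none of the 10 endothelial genes, the age change in non-β-cells differed from that in β-cells by the interaction term of limma-voom. Of 10 tested ligands 1 was called higher and 1 lower. Called higher too were 1 of 16 surface and junction genes and 1 of 4 leukocyte-recruiting genes. None of the 13 receptors or 10 transcription factors was called. Over all genes tested 3.33% were called higher and 1.8% lower, so these counts are descriptions. Jag1, a Notch ligand, differed by 1.69 ± 0.319 on the log2 scale (SE, adjusted p = 0.00762, limma-voom), with means of 13.3 and 10.5 CPM in β-cells and 18.6 and 47.8 CPM in non-β-cells at 4 and 8 weeks. Vegfa differed by -0.68 ± 0.131 (adjusted p = 0.00962), with means of 618 and 753 CPM in β-cells and 713 and 542 CPM in non-β-cells. Icam1 differed by 1.96 ± 0.332 (adjusted p = 0.00403), having risen in both fractions. Gpihbp1 differed by a fitted 6.55 ± 1.70 (adjusted p = 0.0430), a value that depends on the constant added to counts of 0, since 3 of the 4 groups were at 0 in all libraries. The Gpihbp1 call was lost in 15 of 21 alternatives, among them edgeR (adjusted p = 1), DESeq2 (0.512) and the omission of any single library (0.0556 to 0.132), whereas the calls for Jag1, Vegfa and Icam1 were made in 22 of 22. No cause was tested.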

How the results depend on the processing

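The counts of endothelial genes called at 8 weeks between fractions and with age in non-β-cells were 10 of 10 in every alternative that tested all 10, and 9 of 9 where the stricter filter left out Tek. The other counts moved. At 4 weeks between fractions (6) the count was 10 with edgeR, DESeq2, sample quality weights and the replicate block, 2 to 8 without single libraries (2, 3 and 2 without β-cell replicate 1, 2 or 3), and 1 without both 4-week samples numbered 3, added after seeing the data. For age in β-cells (0) it was 2 with edgeR and DESeq2 and 1 with quality weights or the compared groups alone. For the interaction (0) it was 2 at an adjusted p of 0.1, 4 with edgeR and DESeq2, 2 with quality weights, 5 with the replicate block, and 0 to 2 without single libraries. The causes were not tested. The interaction uses all groups, so it has no fit on the compared groups alone.

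The replicate block was judged on 2 gene sets. Over all 15598 tested genes same-numbered β- and non-β-cell samples correlated at 0.0797, 0.133 and 0.306 at 4 weeks, so 1 pair missed 0.1, and at most at 0.0487 at 8 weeks. Between ages the correlations were -0.00634 to 0.0343 in β-cells and -0.00456 to 0.124 in non-β-cells. Over the 10280 better expressed genes (mean log2 CPM of 3 or more), a set chosen after the first values were seen, they were 0.292, 0.429 and 0.673 at 4 weeks, so every pair passed 0.1, but so did samples numbered 1 and 2 with each other (0.259 and 0.434; 0.0967 and 0.114 over all tested genes), and the others were -0.0706 to 0.164 at 8 weeks, -0.0307 to 0.133 in β-cells and -0.0730 to 0.351 in non-β-cells. Because that choice decides the answer, the unblocked counts are the ones reported and the blocked 10 of 10 at 4 weeks and 5 of 10 for the interaction support nothing here.

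Direction turned only for values that passed no test. In β-cells the age difference of Plvap was -0.59 with edgeR, -0.61 with DESeq2 and -0.52 with the replicate block, and that of Flt4 -0.11 with edgeR and -0.13 with DESeq2. That of Angpt1 was -0.0053 with DESeq2 size factors, -0.036 with total counts, -0.24 with quality weights, -0.055 with the compared groups alone, -0.0052 without hormone and mitochondrial genes and -0.68 without both 4-week samples numbered 3. Without single libraries the age difference in β-cells ranged from -0.48 to 2.63 for Cdh5, -0.97 to 2.70 for Plvap, -1.30 to 1.06 for Angpt1, -0.084 to 0.98 for Angpt2 and -0.36 to 0.93 for Flt4. For Angpt1 it ranged from -0.091 to 1.86 in non-β-cells, and the interaction from -0.038 to 2.53.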
